A study of Mus musculus with 44 samples.

Results

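Serotonin receptor mRNA bound to ribosomes was measured in hippocampal cells with a history of Emx1 expression, in mice that ran on a wheel early in life and in mice that did not. The 9 genes described, Htr1a, Htr1b, Htr1f, Htr2a, Htr2c, Htr3a, Htr4, Htr5a and Htr7, were taken by symbol through their Ensembl identifiers from a count table of 55335 genes. The rule itself uses symbols and no measured value. All mice were male and carried both the Emx1-IRES-Cre knock-in and the NuTRAP cassette, so the sedentary controls carried the same alleles as the runners. The cassette tags a ribosomal protein and the nuclear envelope wherever Cre has acted, and translating ribosome affinity purification (TRAP) then recovers mRNA held by the tagged ribosomes. Early-life exercise (ELE) meant that a wheel stood in the cage between postnatal days 21 and 41, and tissue was taken on the following day. Simultaneous isolation (SIT) drew mRNA and nuclei from the combined hippocampi of a mouse, and gave 4 ELE and 4 sedentary libraries. Separate isolation drew mRNA from the hippocampus of 1 hemisphere only, and gave 3 ELE and 3 sedentary libraries from the left and the same numbers from the right. Each library came from a different mouse, so the spread between libraries holds the spread between animals. Emx1-Cre acts from development onward, marks the progenitors of the dentate gyrus as well as excitatory neurons, and can therefore also mark astrocytes that descend from them.

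Serotonin reaches the hippocampus through axons of the raphe nuclei and acts there on a family of receptors that differ in their coupling. Htr1a, Htr1b, Htr1f and Htr5a encode receptors of the Gi/o-coupled kind, which lower cyclic AMP and can open potassium channels. Htr4 and Htr7 encode Gs-coupled receptors, which raise cyclic AMP, Htr2a and Htr2c encode Gq-coupled receptors, which act through phospholipase C, and Htr3a encodes the obligatory subunit of a cation channel opened by serotonin. In the hippocampus Htr1a is known from pyramidal and granule cells, Htr3a from a class of GABAergic interneurons, and Htr2c, among other sites, from the epithelium of the choroid plexus beside the tissue.

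Library totals lay between 45895097 and 65767802 counts, and 17 of the 20 libraries were kept, because the study left out 1 ELE and 2 sedentary SIT libraries from its comparison. The 2 sedentary libraries left out stood apart, with 8.64% and 9.64% of counts on mitochondrial genes. The summed level of 5 excitatory neuron markers in the 17 libraries was between 10493 and 13307 CPM (counts scaled to library size), against 379 to 700 CPM for 10 interneuron markers, 1684 to 5070 CPM for 5 astrocyte markers, 2160 to 3620 CPM for 5 oligodendrocyte markers and 2.18 to 6.67 CPM for 5 microglia markers. Most of the interneuron sum was Cck, at 325 to 451 CPM, and Npy reached up to 297 CPM. Gad1 was at 31.3 to 56.0 CPM, Gad2 at 2.38 to 10.5 CPM and Slc32a1 at 0.856 to 5.51 CPM. Of 4 markers of serotonergic neurons, Fev, a transcription factor of these cells, was at 0 counts in all 20 libraries, and Slc6a4, the serotonin transporter, was between 0 and 18 counts. Tph2, the neuronal enzyme that starts serotonin synthesis, was present in every library at 28 to 86 counts, and Slc18a2, the vesicular monoamine transporter, was at 3.62 to 9.01 CPM in the 17 libraries.

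The 9 genes lie at 9 places in the genome, in GRCm38 coordinates. Htr1a is on chromosome 13 (105443639 to 105448122, plus strand), Htr1b on chromosome 9 (81628291 to 81633828, minus strand), Htr1f on chromosome 16 (64924729 to 65105854, minus strand) and Htr5a on chromosome 5 (27842149 to 27855088, plus strand). Htr2a is on chromosome 14 (74640840 to 74709494, plus strand) and Htr2c on the X chromosome (146962513 to 147197277, plus strand). Htr4 is on chromosome 18, Htr7 on chromosome 19 (35958734 to 36057507, minus strand) and Htr3a on chromosome 9 (48899213 to 48911099, minus strand). All values are reads on the exons of these genes.

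Htr1a had the highest mean level of the serotonin receptor mRNAs on these ribosomes. Per kilobase of exonic length its level was 6.98 ± 0.986 CPM per kb (SD, n = 17), and it exceeded Htr7, the next of the 9 genes, in 17 of 17 libraries. Htr7 (2.67 ± 0.436), Htr4 (2.52 ± 0.384), Htr2c (2.42 ± 0.698) and Htr5a (2.26 ± 0.436 CPM per kb) followed. Neighbours among these 4 exchanged places between libraries, since Htr7 exceeded Htr4 in 8 of 17 libraries, Htr4 exceeded Htr2c in 9 and Htr2c exceeded Htr5a in 9. Htr1b (1.52 ± 0.367 CPM per kb) lay below Htr5a in 16 of 17 libraries and Htr2a (1.18 ± 0.219 CPM per kb) lay below Htr1b in 16 of 17. Htr1f stood at 0.318 ± 0.107 CPM per kb and Htr3a at 0.141 ± 0.109 CPM per kb, the lower of them in 14 of 17 libraries. Between the mice Htr1a varied with a coefficient of variation of 14.1%, against 28.8% for Htr2c and 77.4% for Htr3a. In bulk samples such as these, fewer cells of a type and less mRNA per cell cannot be told apart.

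**Figure D1:**
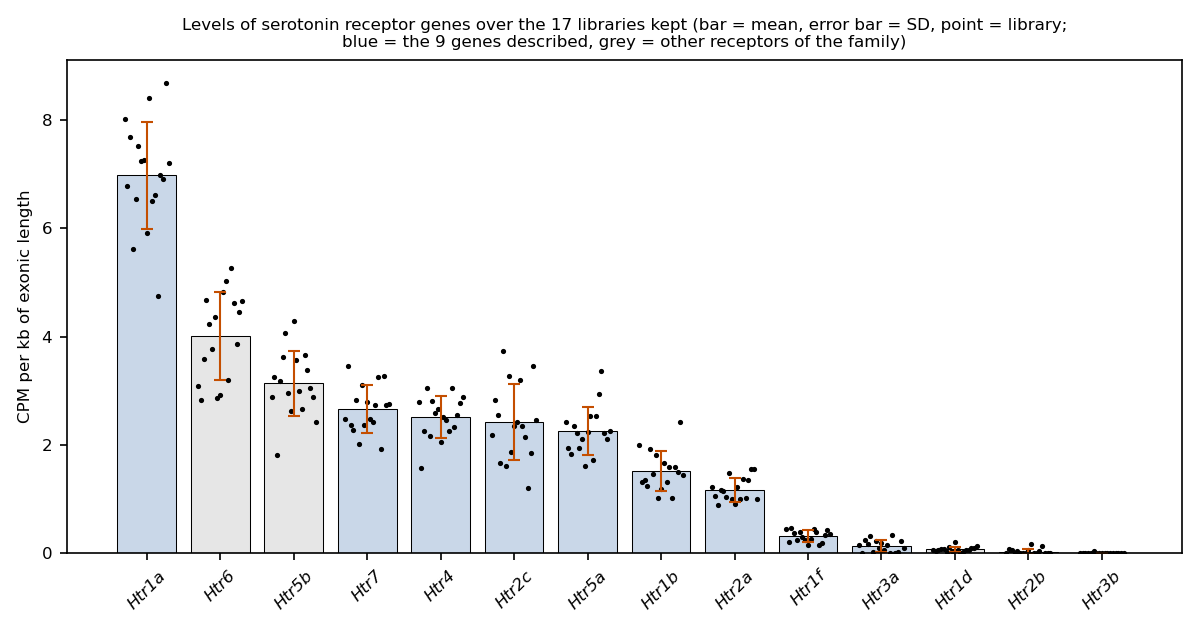
Level of each serotonin receptor gene in CPM per kb of exonic length (linear axis) over the 17 libraries kept, with bars for the mean, error bars for the SD and points for single libraries. Htr1a stands at 6.98 CPM per kb, followed among the 9 genes (blue) by Htr7, Htr4, Htr2c and Htr5a between 2.26 and 2.67, while Htr1f and Htr3a lie near the axis.

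Of the 5 other receptor genes of the family, Htr6, which is Gs-coupled, and Htr5b, which is close to Htr5a in sequence, were at 4.02 and 3.14 CPM per kb, and Htr1d, Htr2b and Htr3b were at or under 0.0760 CPM per kb. In 1 of the 17 libraries, that of left ELE mouse TG9.1.4, Htr6 (5.27 CPM per kb) exceeded Htr1a (4.76 CPM per kb). Summed per kilobase by coupling over all 14 genes, with Htr5b counted as Gi/o-coupled, the Gi/o-coupled receptors held 52.5 ± 3.47% of the receptor mRNA (SD, n = 17), the Gs-coupled ones 33.7 ± 3.17%, the Gq-coupled ones 13.3 ± 2.15% and the channel subunits 0.519 ± 0.383%. In single libraries the Gi/o share was between 45.5% and 57.7% and the Gs share between 30.04% and 41.8%. They were closest in left ELE mouse TG9.1.4, where the Gi/o-coupled receptors summed to 12.6 CPM per kb, 3.66 of it Htr5b, and the Gs-coupled ones to 11.6 CPM per kb. Htr3b, the second channel subunit, had 0 to 4 counts per library in the whole set.

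The first question was whether ELE altered these receptors in the SIT libraries, and no member was called there. The study's rule was used, an unadjusted p under 0.05 together with a change of more than 30%, and edgeR's quasi-likelihood test called 0 of the 9 genes where it called 3.73% of the 18238 genes tested (3 ELE and 2 sedentary mice). The lowest of the 9 unadjusted p-values was 0.0592, for Htr2c, DESeq2 called 0 of the 9 too, and at an adjusted p under 0.05 no gene of the table was called. The median log2 difference of the 9 genes was 0.07, against 0.00 over all genes, with 5 genes higher and 4 lower in ELE.

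Among the Gi/o-coupled receptors in SIT, Htr1a was 36.0, 32.5 and 26.5 CPM in ELE mice and 30.4 and 34.4 CPM in sedentary mice. The sedentary values lay inside the range of the ELE values, and the log2 difference was -0.03 with a 95% confidence interval from -0.38 to 0.32. That interval leaves out a rise of 30% and only just reaches a drop of the same size on the log2 scale. Htr1b (0.07), Htr1f (-0.21) and Htr5a (0.15) differed by less than their standard errors of 0.294, 0.733 and 0.213 on the log2 scale.

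Of the 9 genes, Htr4 and Htr2c had the largest differences in SIT. Htr2c was 20.46, 17.5 and 21.95 CPM in ELE mice against 26.4 and 23.8 CPM in sedentary mice. It was the 1 member whose groups did not overlap, a property of 22.1% of all genes tested, and its log2 difference was -0.33 ± 0.155 (SE), with an interval from -0.67 to 0.02. Htr4 was 13.7, 13.1 and 10.1 CPM in ELE mice against 7.75 and 11.1 CPM in sedentary mice. These groups overlapped, and the log2 difference of 0.38 ± 0.223 came with an unadjusted p of 0.115. Htr7 (-0.19 ± 0.218) and Htr2a (0.12 ± 0.239) differed by less than their standard errors. Without ELE mouse TG7.4.2 both Htr2c (-0.40) and Htr4 (0.51) were called, and without sedentary mouse NT6.306 Htr4 (0.67) was. Without sedentary mouse NT6.305 the difference of Htr4 was 0.15 (unadjusted p 0.600). These last 2 fits have 1 sedentary mouse each, which is assumed to vary as the ELE mice do. With 3 mice against 2, an exact permutation test cannot give a p under 0.1.

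**Figure D2:**
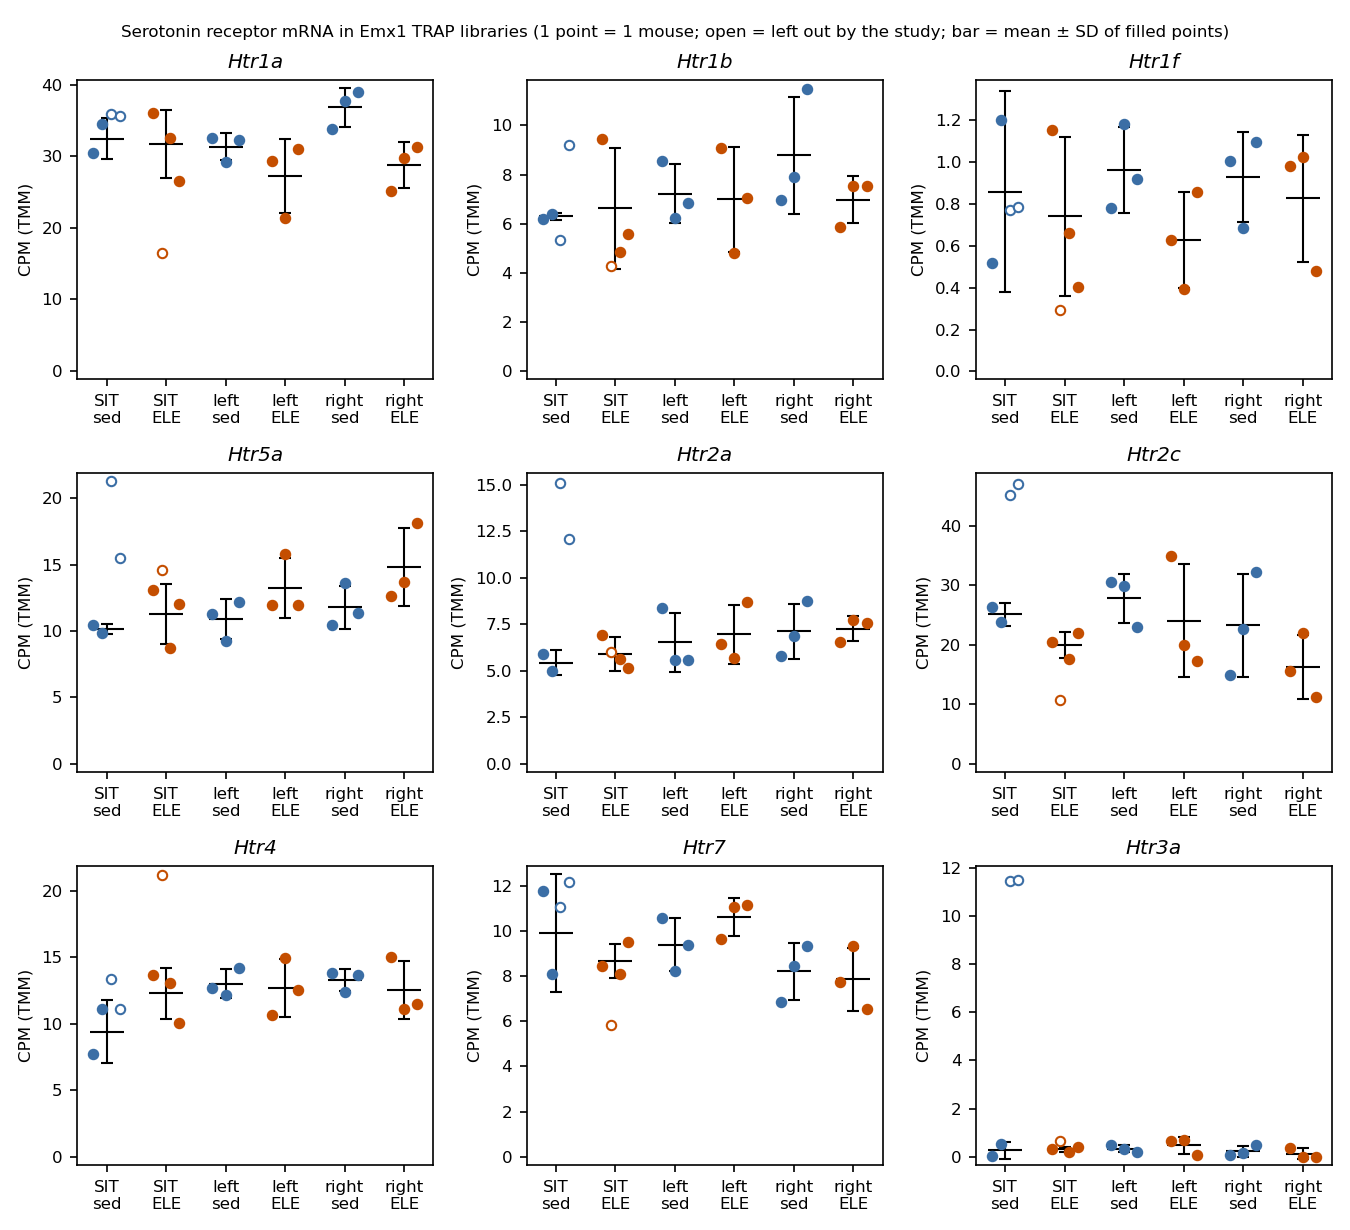
CPM of each of the 9 genes by group (linear axes, 1 panel a gene), where 1 point is 1 mouse, bars are the mean ± SD of filled points and open points are the 3 libraries left out by the study. Htr1a is lower in the 3 right ELE mice (25.2 to 31.3 CPM) than in the 3 right sedentary mice (33.8 to 38.9 CPM), and Htr3a reaches 11.4 and 11.5 CPM in the open sedentary points alone.

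In separately isolated left hippocampi (3 ELE and 3 sedentary mice) 0 of the 9 genes were called by edgeR and by DESeq2, where edgeR called 2.12% of the 17750 genes tested, and none of the 9 had an unadjusted p under 0.05. None had groups that did not overlap, against 10.8% of all genes. Htr1a was 29.4, 21.3 and 31.0 CPM in ELE mice and 32.5, 29.2 and 32.3 CPM in sedentary mice. The lowest value belonged to an ELE mouse while the other two ELE mice fell among the sedentary ones, and the log2 difference was -0.21 ± 0.143. Htr5a was 11.97, 15.8 and 11.9 CPM in ELE mice and 11.3, 9.26 and 12.2 CPM in sedentary mice, a log2 difference of 0.27 ± 0.167 with an unadjusted p of 0.136. The largest difference on the left, -0.61 ± 0.424 for Htr1f, rested on 21 to 64 counts per library.

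In right hippocampi no member was called by edgeR in the ELE comparison, and Htr1a had the lowest p-value of the 8 members tested. It was 25.2, 29.7 and 31.3 CPM in ELE mice and 33.8, 37.7 and 38.9 CPM in sedentary mice, so that every runner lay below every sedentary mouse. Of the 8 members tested 1, Htr1a, had groups that did not overlap, where 7.69% of all genes did, a share near that background. The log2 difference was -0.35 ± 0.116, a level 0.782 times that of sedentary mice, with an unadjusted p of 0.0122 and an adjusted p of 0.9998. The exact permutation test gave 0.1, the smallest p that 3 mice against 3 allow. The difference stayed just short of the study's limit of 0.379 on the log2 scale, and 0 of 8 genes were called where 2% of the 17570 genes tested were. Htr1a was past both limits when any 1 of 3 right libraries was left out (ELE mouse TG9.1.3 or TG9.2.1, or sedentary mouse TG7.3.3), with values of -0.38 to -0.43. Without each of the other 3 it was -0.27 to -0.34, with the largest unadjusted p, 0.0601, without ELE mouse TG7.3.1.

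No other member had an unadjusted p under 0.05 by edgeR on the right, and DESeq2 called 1 of the 8, Htr2c. Htr5a was 12.6, 13.7 and 18.2 CPM in ELE mice and 10.4, 13.6 and 11.3 CPM in sedentary mice, a log2 difference of 0.33 ± 0.176 with an unadjusted p of 0.0878. Its groups overlapped through a single sedentary mouse at 13.6 CPM, and it was called without that mouse (TG9.1.1, 0.44) or without ELE mouse TG7.3.1 (0.43). Without the ELE mouse at 18.2 CPM (TG9.2.1) its difference was 0.15 (unadjusted p 0.395). Htr1b differed by -0.33 ± 0.212, and Htr2a (0.03), Htr4 (-0.08) and Htr7 (-0.06) by less than 0.1. Htr3a had 0, 0 and 19 counts in ELE mice and 3, 7 and 27 in sedentary mice and was not tested on the right, because it did not pass the filter on low counts.

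Taking left and right together in a model with hemisphere as a term, Htr1a and Htr5a were the members with an unadjusted p under 0.05, and neither reached the 30% limit. Htr1a was 28.0 ± 3.92 CPM in ELE mice and 34.1 ± 3.64 CPM in sedentary mice (SD, n = 6 each), a log2 difference of -0.28 ± 0.0937 with an interval from -0.48 to -0.08. The unadjusted p was 0.00936, the adjusted p 0.902, and the exact permutation of mice within hemispheres gave 0.015 over 400 regroupings. Leaving out each library in turn kept the difference between -0.33 and -0.22, with unadjusted p-values from 0.00294 to 0.0271. Htr5a was 14.0 ± 2.49 CPM in ELE mice and 11.4 ± 1.48 CPM in sedentary mice, a log2 difference of 0.30 ± 0.120 with an interval from 0.05 to 0.56. Its unadjusted p was 0.0242, its adjusted p 0.902 and its exact permutation p 0.055. Without 1 library at a time the unadjusted p of Htr5a reached 0.0769. Htr2c differed by -0.37 ± 0.213 (unadjusted p 0.108), and it was called without ELE mouse TG7.3.2 (-0.55) or sedentary mouse TG7.3.3 (-0.45). Of the 9 genes, 0 were called by edgeR and 0 by DESeq2, where edgeR called 2% of the 18283 genes tested. At an adjusted p under 0.05 it called 0.00547% of them, which is 1 gene and not a member.

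**Figure D3:**
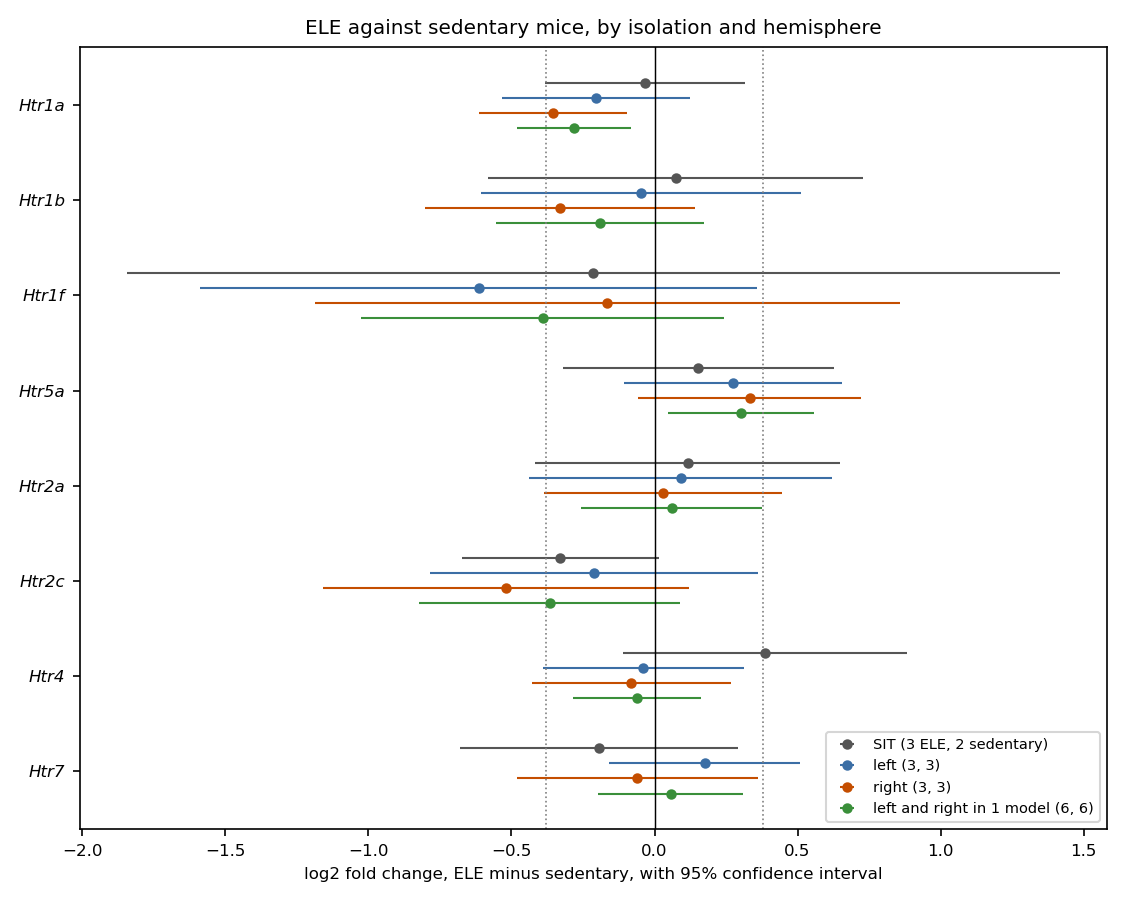
Log2 fold change of each member (ELE minus sedentary, horizontal axis) in SIT, left, right, and left and right in 1 model, with 95% confidence intervals and dotted lines at the 30% limits. The interval leaves out 0 for Htr1a on the right (-0.35) and in the joint model (-0.28) and for Htr5a in the joint model (0.30), and Htr3a is not drawn because it was not tested on the right.

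Those 12 libraries hold no mice of the SIT set, and SIT gave -0.03 for Htr1a and 0.15 for Htr5a with intervals that overlap those of the joint model. The exercise effect was not shown to differ between hemispheres for any member. The interaction test called 0 of the 9 genes, against 2.21% of 18810 genes, with unadjusted p-values from 0.341 to 0.850 by edgeR and no call by DESeq2. Htr3a was called there without ELE mouse TG7.3.1, which left both right ELE libraries at 0 counts. For Htr1a the effect on the left minus that on the right was 0.15 on the log2 scale, with an interval from -0.26 to 0.56, wide enough to hold a difference of more than 30% between hemispheres.

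Htr2c was set beside markers of the choroid plexus, a neighbouring tissue that expresses it. Its 3 closest genes over the 17 libraries, by Pearson's r of log2 CPM, were Folr1 (0.844), Spint2 (0.8288) and Tmem72 (0.824). Folr1, the folate receptor of the choroid plexus, belongs to the list of 9 markers of that epithelium, and the list's summed level ran from 18.8 to 1295 CPM over these libraries. The correlation is a description over libraries that share groups, and the 3 genes were picked as the highest of the table.

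In the right hippocampus the 3 ELE mice had 15.6, 21.9 and 11.3 CPM of Htr2c with 45.5, 18.8 and 31.4 CPM of choroid plexus markers. The 3 sedentary mice had 14.98, 22.7 and 32.3 CPM of Htr2c with 37.2, 87.0 and 1179 CPM of these markers. The sedentary mouse with the most Htr2c was thus the mouse with the most choroid plexus mRNA, and the other 5 overlapped in Htr2c. The log2 difference of Htr2c was -0.52 ± 0.287 with an unadjusted p of 0.101 by edgeR, while 6 of the 8 choroid plexus markers tested were called lower in ELE, Ttr (transthyretin) by a log2 difference of -5.27. On the same mice Htr2c was called by DESeq2 (-0.52, unadjusted p 0.0470) and by edgeR without the filter on low counts (unadjusted p 0.00855). Without the sedentary mouse rich in choroid plexus markers (TG9.2.3) its difference was -0.21 (unadjusted p 0.468). Without ELE mouse TG9.1.3 (-0.80) or sedentary mouse TG7.3.3 (-0.75) it was called.

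In the left hippocampus the ELE mice had 34.9, 20.02 and 17.2 CPM of Htr2c with 1031, 26.3 and 56.8 CPM of choroid plexus markers. The sedentary mice had 30.5, 29.9 and 23.0 CPM of Htr2c with 1055, 1295 and 33.2 CPM of markers. Again each library above 1000 CPM of markers held more Htr2c than each of the other 3. The log2 difference for exercise was -0.21 ± 0.250, and without the ELE mouse at 1031 CPM (TG7.3.2) it was -0.58 and called, with an unadjusted p of 0.00595. In SIT, where Htr2c differed by -0.33, the markers were at 132 to 588 CPM in ELE and at 596 and 679 CPM in sedentary mice, and 3 of 9 (Folr1, Clic6 and Kl) were called lower in ELE. The part of choroid plexus mRNA in the Htr2c values was not tested. In the 8 separately isolated libraries with at most 87.0 CPM of these markers, Htr2c was at 11.3 to 23.0 CPM.

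**Figure D4:**
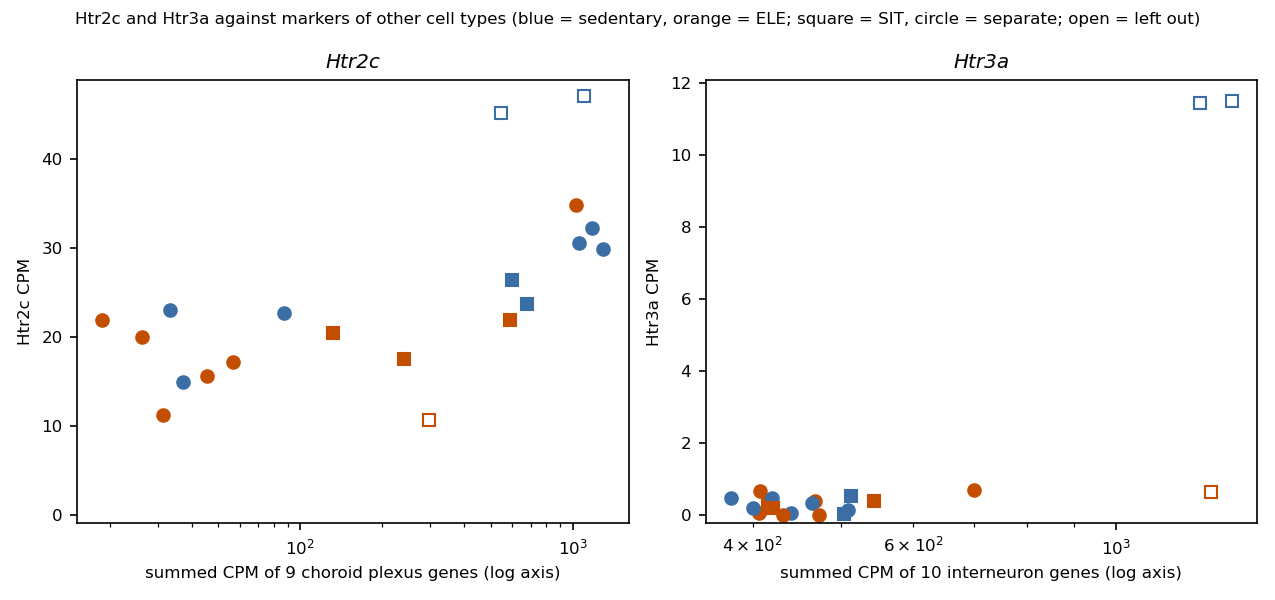
Left, Htr2c CPM (linear axis) against the summed CPM of 9 choroid plexus genes (log axis), and right, Htr3a CPM against the summed CPM of 10 interneuron genes (log axis), with 1 point a library, sedentary in blue, ELE in orange, SIT as squares, separate isolation as circles and libraries left out by the study as open points. The 4 separately isolated libraries above 1000 CPM of choroid plexus markers hold 29.9 to 34.9 CPM of Htr2c. The open sedentary points, at 544 and 1098 CPM of these markers, hold 45.2 and 47.1 CPM of Htr2c. Of the 3 open points at 1236 to 1341 CPM of interneuron markers 2 hold over 11 CPM of Htr3a and 1 holds 0.641 CPM. Cck makes up 325 to 451 CPM of the interneuron sum in the libraries kept.

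Htr3a separated the libraries more sharply than any other member. It had 593 and 632 counts in the 2 sedentary SIT libraries that the study left out (numbered NT7.2), or 11.4 and 11.5 CPM, and 0 to 43 counts in the other 18. In those 2 libraries the channel subunits took 13.9% and 14.5% of the summed receptor level, against 0 to 1.21% in the 17 libraries kept. The 10 interneuron markers summed to 1236 and 1341 CPM there, and 8 of the 10 (Gad1, Gad2, Slc32a1, Sst, Pvalb, Vip, Lhx6 and Adarb2) were above their levels in all 17. The 5 microglia markers summed to 173 and 181 CPM, and all 5 were above their levels in the 17. The 5 oligodendrocyte markers summed to 4113 and 4688 CPM, with 3 of 5 above all 17, and 2 of 5 endothelial markers were above all 17. The part of other cells' mRNA in these values was not tested.

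The ELE SIT library that was left out (mouse NT6.304) had 1272 CPM of interneuron markers as well, but 33 counts of Htr3a (0.641 CPM). Of that sum 775 CPM were Npy, and Sst (7.19 CPM) and Slc32a1 (3.63 CPM) were within the range of the 17 libraries, so that 3 of the 10 markers (Gad1, Gad2 and Npy) were above it. Its receptors differed from the rest in other ways, since Htr1a was lowest there of all 20 libraries (16.5 CPM) and Htr4 highest (21.15 CPM). Its 7 striatum markers summed to 194.6 CPM, against 116 to 148 CPM in the 17 libraries, with Drd1 (28.1 CPM) and Ppp1r1b (90.8 CPM) above all of them, and the part of this in the Htr4 value was not tested. Htr2c (45.2 and 47.1 CPM) and Htr2a (15.1 and 12.1 CPM) were above all other libraries in the 2 sedentary libraries left out. Choroid plexus markers summed to 544 and 1098 CPM in those 2 libraries, within the 18.8 to 1295 CPM of the 17 libraries. The sedentary SIT mice kept had 596 and 679 CPM of these markers with 26.4 and 23.8 CPM of Htr2c.

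These 3 libraries decide what the SIT comparison says of the receptors. With all 4 mice of each group, where 1375 of 17531 genes were called in all, 2 of the 9 genes were called lower in ELE, Htr3a by a log2 difference of -3.87 (unadjusted p 0.0109) and Htr2c by -1.002 (unadjusted p 0.00430). Without the 3 libraries neither was called, and Htr3a differed by 0.22 ± 1.39, on 1 to 27 counts. Within the mice numbered NT6, a comparison added after the data were seen, Htr4 was called higher in ELE by 0.89 (unadjusted p 0.0295), on 2 mice of each group with the left-out ELE library among them and 1196 of 17738 genes called in all.

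Left and right hippocampi were next compared with each other in the joint model, and 0 of the 9 genes were called by edgeR and by DESeq2, against 1.15% of all genes. Htr7 was 9.65, 11.1 and 11.1 CPM in left ELE mice, 10.6, 8.22 and 9.36 CPM in left sedentary mice, 7.72, 9.31 and 6.53 CPM in right ELE mice and 6.84, 8.45 and 9.32 CPM in right sedentary mice. Left and right mice overlapped between 8.22 and 9.32 CPM. The log2 difference of left minus right was 0.31 ± 0.119, with an unadjusted p of 0.0190, an adjusted p of 0.9999 and an exact permutation p of 0.025, under the limit of 0.379. Htr2c differed by 0.41 ± 0.213 (unadjusted p 0.0755) and was called without ELE mouse TG9.1.3 or TG9.2.2 or sedentary mouse TG9.2.3 (0.48 to 0.56), and the choroid plexus markers reached 1000 CPM in 3 of 6 left libraries and 1 of 6 right ones.

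The study also set its isolation methods side by side. Between sedentary SIT mice (2) and sedentary right hippocampi (3), 1 of the 9 genes was called, where 14.4% of 18137 genes were. Htr4 was 7.75 and 11.1 CPM in SIT and 13.8, 12.3 and 13.7 CPM in the right hippocampi. These groups did not overlap, as for 3 of the 9 genes and 40.1% of all genes, and the log2 difference was -0.50 ± 0.190 (unadjusted p 0.0275, adjusted p 0.181). In the same comparison 4 of 5 astrocyte markers were called lower in SIT and 5 of 10 interneuron markers higher. Of 10 Gs signalling genes 5 were called lower and 1 higher, of 7 Gq signalling genes 2 lower, and of 8 Gi/o signalling genes 1 each way. Of 7 striatum markers 2 were called lower and 1 higher, and of 5 neocortex markers 2 higher. Mitochondrial genes took 0.245% and 0.426% of counts in SIT against 0.0834% to 0.0892% in the right hippocampi. The part of these in the Htr4 value was not tested. At an adjusted p under 0.05, 3.38% of all genes were called and no member. The call was lost with all 4 sedentary SIT mice (-0.30) and without SIT mouse NT6.305 (-0.26, with 1 SIT mouse remaining, assumed to vary as the others do) or either of the right mice TG9.2.3 (-0.48) and TG7.3.3 (-0.47). Htr1b differed by -0.48 ± 0.237 and was called without TG7.3.3 (-0.63). Isolation cannot be told apart from the series of mouse numbers, because no first part of a mouse number occurs under both isolations. Nor can it be told apart from hemisphere here, because SIT combined both hippocampi of a mouse and the others were right hippocampi.

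Of the other genes of the serotonin pathway 1 was called in SIT (3.73% of all genes were), 1 on the left (2.12%), and 0 on the right and in the joint model (2% each). None of the 8 genes of Gi/o signalling (G protein subunits and the potassium channels they open), the 10 of Gs signalling (among them the adenylyl cyclases) and the 7 of Gq signalling was called in SIT, on the left, on the right or in the joint model. Of 8 genes that regulate the receptors, S100a10 was called lower in ELE in SIT, and none in the other 3 comparisons. S100a10 encodes p11, which binds Htr1b and Htr4 and brings them to the cell surface. It was 18.0, 13.7 and 14.4 CPM in ELE mice and 21.9 and 19.0 CPM in sedentary mice, a log2 difference of -0.41 ± 0.175 (unadjusted p 0.0404, adjusted p 0.906), and it differed by 0.74 ± 0.462 on the left and by -0.19 ± 0.399 on the right. On the left 1 ELE mouse (TG9.1.4) was at 50.3 CPM and the other 5 mice at 11.9 to 18.0 CPM, and the ELE SIT library left out (NT6.304) was at 58.3 CPM, above all sedentary SIT mice. On the right 1 sedentary mouse (TG9.1.1) was at 40.6 CPM and the other 5 mice at 13.1 to 26.2 CPM. Astrocyte markers summed to 5016 CPM in TG9.1.4, against 2241 to 3118 CPM in the other left mice. They summed to 5070 CPM in TG9.1.1, against 2576 to 4479 CPM in the other right mice, and to 3801 CPM in NT6.304, against 1509 to 3173 CPM in the other SIT mice. Their part in the S100a10 values was not tested. Of 6 tested genes that make, carry or break down serotonin, Ddc, the decarboxylase that completes its synthesis, was called higher in ELE on the left and none was called in SIT, on the right or in the joint model. Ddc was 2.38, 2.33 and 1.89 CPM in left ELE mice and 0.989, 1.18 and 1.72 CPM in left sedentary mice, a log2 difference of 0.76 ± 0.298 (unadjusted p 0.0334, adjusted p 0.960), against -0.15 ± 0.287 on the right, and the interaction of exercise with hemisphere was called for it (0.90, unadjusted p 0.0375, adjusted p 0.99996).

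Some markers of regions and other cell types were called in the exercise comparisons, and their part in the receptor values was not tested. Of all genes, 3.73% were called in SIT, 2.12% on the left, and 2% each on the right and in the joint model. At an adjusted p under 0.05 no gene was called in SIT, on the left or on the right, and 1 was in the joint model. In SIT 2 of 5 dentate gyrus markers (Prox1 and Dsp) were called higher in ELE, and 2 of 5 neocortex markers (Lamp5 and Cux2) and 1 of 10 interneuron markers (Pvalb) lower. On the left 1 interneuron marker (Npy) was called higher. The 10 interneuron markers summed to 700 CPM in left ELE mouse TG9.1.4 and to 401 to 465 CPM in the other left mice. Npy itself ran from 0.767 to 297 CPM over the libraries kept, with a median of 3.27 CPM. On the right 1 interneuron marker (Slc32a1) and 1 of 5 CA3 markers (Bok) were called higher, and 1 of 5 microglia markers (Cx3cr1) and 1 of 5 endothelial markers (Cldn5) lower. The 5 endothelial markers summed to 25.6 CPM in right sedentary mouse TG7.3.3 and to 1.51 to 3.60 CPM in the other right mice. In the joint model Drd2 of the striatum list was called higher and Folr1 of the choroid plexus list lower. No marker of excitatory neurons, astrocytes, oligodendrocytes or CA1 was called in these 4 comparisons.

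Other members were each most like a different gene over the 17 libraries. Htr1a was most like Nr1d2, a circadian repressor (r = 0.833), Htr1b most like Gria4, an AMPA receptor subunit (0.843), Htr5a most like Rnf144a (0.865), Htr1f most like Rtl4 (0.847), Htr2a most like Pex7 (0.763), Htr7 most like Kdm1b (0.762) and Htr3a most like Pvr (0.740). Among the members themselves the highest r was 0.678, between Htr1b and Htr2a, and the lowest was -0.412, between Htr1f and Htr5a. These values describe the same 17 libraries of 6 groups and carry no test.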

How the data were processed

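TRAP-seq counts of 20 Emx1-NuTRAP libraries were analysed. The authors aligned reads to GRCm38 with STAR 2.7.3a, removed duplicates with Picard 1.87, counted read pairs per gene on exons, and deposited whole-number counts without normalization. A second table, of wild-type tissue, has 24 columns that could not be matched to samples and were not used. The histone data were not analysed here.

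Columns carry mouse numbers and were assigned to groups through the study's list of mice. Symbols and exonic lengths came from GENCODE for GRCm38 (54587 identifiers matched with version, 55154 without). The members and gene lists were chosen with earlier results of these data known. All 9 members were named, of the other lists the genes past the call rule, and per member the genes of highest correlation, with values for the closest. Some genes that this rule selects are not reported here.

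Counts were scaled with TMM, filtered with filterByExpr (minimum count 10) and tested with edgeR 4.0.16 (R 4.3.3) over all genes, with Benjamini-Hochberg adjustment. CPM used TMM over all 20 libraries. Standard errors are the absolute log2 difference divided by the square root of F. Exact permutation tests were two-sided, on log2(CPM + 0.5). The SIT libraries compared by the study were identified from the mean normalized counts it lists. Alternatives were DESeq2 1.42.0, median-of-ratios size factors, no filter, all SIT libraries, 1 fit over all groups, a replicate block, each library left out, and 2 added after the data were seen. The steps were tested on simulated data. To look for duplicate libraries, the counts of 24 pairs of libraries of 1 group were compared, and none agreed within counting error (chi-square per gene 20.3 to 471).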

Additional observations from a re-analysis of the deposited data

How the results depend on the processing

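With all SIT libraries 2 members were called and Htr1b (-0.16), Htr2a (-0.67), Htr3a (-3.87) and Htr5a (-0.22) changed sign. With 4 ELE against the same 2 sedentary libraries, added after seeing the data, Htr1b did (-0.058), and within the mice numbered NT6, also added, 1 member was called. On the right 1 was called with DESeq2 (356 of 17570 genes in all) and 1 without the filter (719 of 26947 genes, against 351 with it). Without the filter 1 was called for hemisphere (669 of 29378 genes) and 2 for isolation (Htr4 and Htr1b, 3105 of 26139 genes). The cause was not tested.

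Leaving out each library in turn gave 0 to 2 members called in SIT (357 to 1122 genes called in all), 0 to 1 on the left (225 to 975), 0 to 2 on the right (311 to 657), 0 to 1 in the joint model (302 to 598), 0 to 1 for hemisphere (196 to 447), 0 to 1 for the interaction (357 to 727) and 0 to 1 for isolation (2197 to 2807). Log2 differences that changed sign ran in SIT from -0.14 to 0.078 for Htr1a, -0.27 to 0.26 for Htr1b, -0.69 to 0.51 for Htr1f, -0.015 to 0.24 for Htr2a, -0.72 to 3.88 for Htr3a and -0.44 to 0.10 for Htr7. On the left they ran from -0.29 to 0.16 for Htr1b, -0.10 to 0.31 for Htr2a and -0.17 to 0.071 for Htr4, on the right from -0.35 to 0.10 for Htr1f, -0.10 to 0.20 for Htr2a and -0.20 to 0.050 for Htr7, and in the joint model from -0.028 to 0.15 for Htr2a and -1.02 to 0.40 for Htr3a.

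The replicate block, the first part of the mouse number, left 0 members called on the left, on the right, in the joint model, for hemisphere and for the interaction. Correlations between mice sharing a number ran from -0.12 to 0.29, positive in 4 of 4 for TG7.3 and of mixed sign for TG9.1 and TG9.2. The sources do not say what the number stands for, and it was not treated as a pairing. The block was not fitted for SIT, where NT6 alone was shared by both groups and the estimate would rest on those mice. For isolation no number was shared, so no block was possible. At these depths Htr3a and Htr1f, with at most 68 counts in the libraries kept, limit what a difference can show.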
